A study of Mus musculus with 7 samples.

Results

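The 10 genes described here, Mrc1, Cd163, Cd209f, Cd209g, Lyve1, Fcna, Retnla, Ccl24, Folr2 and F13a1, encode scavenger receptors, lectins and secreted proteins of tissue-resident macrophages. They were taken by symbol from the 27998 genes of a single-cell RNA-seq count matrix, and all 10 had a row. The matrix holds 13684 cells of the abdominal (#4) mammary glands of nulliparous female mice, 3 young mice aged 3 to 4 months (Young A, B and C) and 4 aged mice of 13 to 14 months (Aged A, B, C and D). Per the study's methods the mice had a mixed FVB, 129 and C57BL/6J background and glands were collected at diestrus, and neither group received a treatment. Glands were freed of lymph nodes, digested with collagenase and hyaluronidase, depleted of red cells and captured with a droplet kit that reads the 3′ end of each transcript, with 1 library per mouse. Cell types carry the names the authors deposited.

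Tissue-resident macrophages take up dead cells, matrix fragments and microbial sugars through a set of endocytic receptors, and several of these receptors bind carbohydrate and are therefore called lectins. In the mammary gland, macrophages lie in the fat and connective tissue and also within the ducts, where they clear cells and remodel matrix as the gland changes over the cycle and with pregnancy. The authors separated a Ma and a Mb type by marker genes and proposed, as a possibility, that Ma cells are the stromal and Mb cells the ductal macrophages. The mannose receptor MRC1 and the DC-SIGN relatives CD209F and CD209G are membrane lectins, ficolin A (Fcna) is a secreted lectin that starts the lectin pathway of complement, CD163 takes up haptoglobin bound to haemoglobin, and LYVE1 binds hyaluronan. RELM-alpha (Retnla) and the chemokine CCL24, which attracts eosinophils through CCR3, are secreted products that interleukin-4 and interleukin-13 induce through STAT6. FOLR2 is the folate receptor beta, and F13a1 encodes the catalytic subunit of factor XIII, the transglutaminase that cross-links fibrin.

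Of these genes, 2 sit side by side. In GENCODE vM21 on GRCm38, Cd209f lies at chr8:4102787-4105835 on the minus strand and Cd209g at chr8:4134098-4137707 on the plus strand, with 28262 bp between them. The windows of 120 bases directly before their annotated coding transcripts are shown because the copies are so alike that counts of the genes may not be fully separable. They come from the RefSeq promoter table on GRCm38.p6, run 5′ to 3′ on the strand of the gene, and have in capitals the bases that are unmatched in an alignment of both windows. The Cd209f window is chr8:4105836-4105955 and the Cd209g window is chr8:4134532-4134651. The Cd209g window lies before the coding transcript but inside the annotated span of the gene.
Cd209f: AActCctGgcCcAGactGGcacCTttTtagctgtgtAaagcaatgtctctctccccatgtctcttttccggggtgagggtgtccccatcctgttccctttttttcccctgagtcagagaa
Cd209g: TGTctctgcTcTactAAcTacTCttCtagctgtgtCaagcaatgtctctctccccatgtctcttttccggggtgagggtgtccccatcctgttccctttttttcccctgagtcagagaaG
The windows were identical at 107 of 123 aligned columns (87%), and the part nearest the coding transcript holds a run without a mismatch. The longest coding transcripts of the genes were 89.5% identical over their alignment. Of the 2168 runs of 50 bases in Cd209f transcripts, 646 (29.8%) also occur in Cd209g transcripts, which is 16.6% of the runs of Cd209g, whereas 0 runs of Cd209f occur in Cd209a, Cd209b, Cd209c, Cd209d or Cd209e. A read that lies wholly within shared sequence matches both genes, so the split of UMIs between Cd209f and Cd209g is uncertain. The runs were counted over all annotated transcripts of each gene, and not for the 3′ ends that the kit reads.

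Retnla is at chr16:48842551-48844461 on the plus strand. The 120 bases before it, chr16:48842431-48842550, are shown because Retnla had the most UMIs of the 10 genes and its induction through STAT6 is textbook knowledge, and the capitals mark a match to the STAT6 motif (TTC and GAA with 4 bases between them) that starts 87 bases before the gene.
Retnla: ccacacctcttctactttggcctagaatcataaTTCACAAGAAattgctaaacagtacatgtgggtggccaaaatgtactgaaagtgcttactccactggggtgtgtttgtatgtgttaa
This motif reads the same on both strands. The motif was found in 1 of the 8 genes with an entry in the promoter table (300 bases around each start site), and in 6.95% of all 32841 promoters of that length. The PU.1 motif GAGGAA, searched on both strands, was in 4 of the 8 (Mrc1, Fcna, Retnla and F13a1) and in 28.3% of all promoters, and the MAF motif TGCTGA in 3 of the 8 (Fcna, Folr2 and Retnla) and in 19.5% of all. A match describes letters and no binding was measured.

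The other genes are at chr2:14229392-14332057 (Mrc1, plus strand), chr6:124304656-124330527 (Cd163, plus), chr7:110850607-110863239 (Lyve1, minus), chr2:25624666-25628030 (Fcna, minus), chr5:135569937-135573049 (Ccl24, minus), chr7:101839988-101857194 (Folr2, minus) and chr13:36867178-37050244 (F13a1, minus). Mir511 lies within Mrc1 on the same strand, and Fcna, Folr2 and F13a1 overlap annotated genes on the other strand. Folr2 and the folate receptor gene Folr1 are 1136 bp apart, but their longest coding transcripts were 60.4% identical and shared 0 runs of 50 bases.

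The libraries held 6652599 to 16999625 UMIs and 1264 to 2865 cells, and cells held 2714 to 17158 UMIs. Ma macrophages numbered 40, 20 and 61 in Young A, B and C, 1 in Aged A and 0 in the other aged mice, and had 3163 to 8618 UMIs each. In the young mice their macrophage markers (9 of 9 detected, among them Csf1r, Adgre1 and C1qa) summed to 10139 to 15472 CPM (the UMIs of a gene scaled to a common total of UMIs in the summed cells, as counts per 1e+06). The name macrophage thus held, but this list does not separate Ma from Mb macrophages, where it summed to 13550 to 17827 CPM. The Mb list was at 57.9 to 157 CPM in Ma and 2180 to 4378 CPM in Mb macrophages. Markers of other types were present in the Ma macrophages, the vascular endothelial list at 1818 to 4953 CPM, the fibroblast list at 727 to 2084 CPM and the epithelial list at 604 to 2230 CPM, while the dendritic cell list was at 64.7 to 157 CPM with Flt3 and Ccr7 at 0. The monocyte list was at 259 to 313 CPM and the mast cell and eosinophil list at 10.1 to 214 CPM. Fabp4 gave most of the vascular endothelial list, with a mean of 3516 CPM. The other genes of that list, Pecam1, Cdh5, Sox17 and Sele, had means of 63.6, 97.7, 37.5 and 8.44 CPM. Of all cells, 202 carried a barcode that another library also held, 1 of them a Ma macrophage and 5 of them dendritic cells. Each library is 1 mouse, so an effect of age and an effect of how the libraries of an age group were made cannot be told apart.

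The membrane lectins were found in Ma macrophages of all 3 young mice. Mrc1 was at 506, 604 and 613 CPM in the Ma macrophages of Young A, B and C (100, 54 and 180 UMIs), a mean of 574 ± 59.1 (SD, n = 3). Dendritic cells came next with 26.9, 9.06 and 47.3 CPM, and the ranges of the types did not overlap. Cd209f was at 2313, 1431 and 1294 CPM in Ma macrophages (457, 128 and 380 UMIs). Young A was the highest and the other young mice lay close together. Cd209g was at 1098, 1006 and 929 CPM (217, 90 and 273 UMIs), a mean of 1011 ± 84.5 (SD, n = 3). Outside Ma macrophages both Cd209 genes were close to 0, with a highest mean of 4.34 CPM for Cd209f, in Mb macrophages, and of 1.15 CPM for Cd209g, in vascular endothelial cells.

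The scavenger receptor gene Cd163 was at 238, 302 and 255 CPM in the Ma macrophages of Young A, B and C (47, 27 and 75 UMIs), a mean of 265 ± 33.1 (SD, n = 3). Dendritic cells followed at 24.2, 0 and 7.28 CPM, below every Ma value. The hyaluronan receptor gene Lyve1 was at 531, 704 and 385 CPM in Ma macrophages (105, 63 and 113 UMIs). It was the 1 gene of the 10 with a higher level elsewhere, since lymphatic endothelial cells, for which LYVE1 is a standard marker, held 1191 CPM in Young A and 1109 CPM in Young C. Those values rest on 5 and 3 cells, and the single lymphatic endothelial cell of Young B had 0 Lyve1 UMIs. In all mice together 79 Lyve1 UMIs came from 8 of 28 lymphatic endothelial cells, 30 of them from 1 cell. Lyve1 was at 0 in the dendritic cells, Mb macrophages, NK cells and T and B cells of the young mice.

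Among the secreted products, Retnla had by far the most UMIs. It was at 13559, 22985 and 26032 CPM in the Ma macrophages of Young A, B and C (2679, 2056 and 7646 UMIs), a mean of 20859 ± 6503 (SD, n = 3). The level in Young A was the lowest and that in Young C the highest. Ccl24 was at 688, 593 and 994 CPM (136, 53 and 292 UMIs), with Young C again the highest. Fcna was at 557, 861 and 449 CPM (110, 77 and 132 UMIs) and F13a1 at 612, 1219 and 790 CPM (121, 109 and 232 UMIs), both highest in Young B. The next type for F13a1 was the dendritic cells at 26.9, 72.5 and 38.2 CPM, for Ccl24 also the dendritic cells with a mean of 10.3 CPM, and for Fcna the highest mean outside Ma macrophages was 1.18 CPM, in HS cells, the hormone-sensing luminal epithelium. None of these ranges reached that of Ma macrophages.

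Folr2 was at 1361, 1342 and 1178 CPM in Ma macrophages (269, 120 and 346 UMIs), a mean of 1294 ± 101 (SD, n = 3). HS cells were second with 60.5 ± 11.8 CPM (SD, n = 3). HS-AV cells, which hold markers of both the HS and the alveolar (AV) luminal lineage, followed with 30.1 ± 14.5 CPM (SD, n = 3). The ranges of HS and HS-AV cells did not overlap, whereas below them neighbouring types did overlap.

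In order of levels, Ma macrophages were the highest of 13 cell types for 9 of the 10 genes and second for Lyve1. The same position was held by 6.46% of the 18784 genes with a count in the young mice. All 10 genes were at least 2-fold higher in Ma than in Mb macrophages in each young mouse, which held for 9.01% of the 13287 genes with a count there. Against dendritic cells all 10 were again at least 2-fold higher in each young mouse, against 7.03% of 13718 genes. The genes were chosen with earlier results of these data known, so these counts describe them and are no test.

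**Figure D1:**
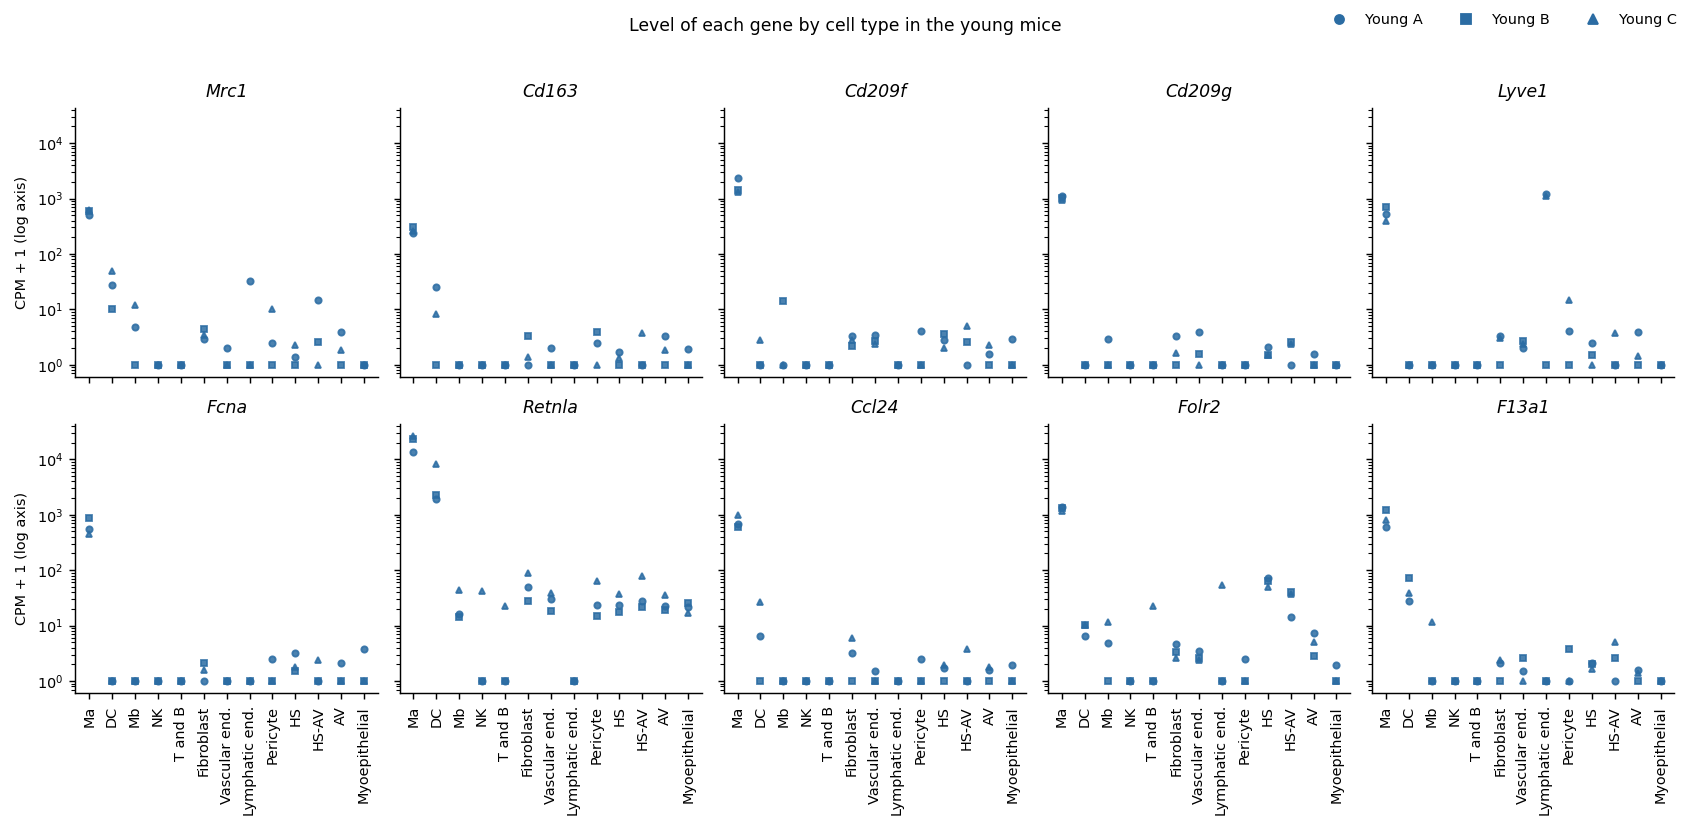
Level of each of the 10 genes (CPM + 1, log axis) in the 13 cell types of the young mice, 1 symbol per mouse and type, with the 1 lymphatic endothelial cell of Young B included. Ma macrophages stand above all other types in every panel but that of Lyve1, where lymphatic endothelial cells at 1109 and 1191 CPM are higher, and Retnla is the 1 gene with a second high type, the dendritic cells.

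The 124 Mb macrophages of the young mice held 22 UMIs of the 10 genes in all, 13 of them Retnla, among 688811 UMIs of any gene. Cd163, Lyve1, Fcna and Ccl24 were at 0 there, which puts Ma macrophages at least 58.9-fold, 111-fold, 126-fold and 190-fold higher, taking 3 UMIs over the group as the limit that a count of 0 allows. Mrc1 had 3 UMIs in Mb macrophages, and the ratio of Ma to Mb was 132 with an exact 95% counting interval of 44.8 to 644. Folr2 also had 3, with a ratio of 291 (99.05 to 1412). Cd209f, Cd209g and F13a1 had 1 UMI each. Mb macrophages themselves were well supplied with macrophage transcripts, since the macrophage list summed to 13550 to 17827 CPM in them and their own list, with Mmp12, Acp5 and Itgax, to 2180 to 4378 CPM. In NK cells 9 of the 10 genes were at 0 and in T and B cells 8 of the 10, in 28 and 20 cells.

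Most UMIs of these genes in the young glands came from Ma macrophages, which were 1.90% of the cells and gave 1.64% of the UMIs. Their share was 95.6% for Cd209g, 94.6% for Cd209f, 93.3% for Fcna, 88.4% for Ccl24, 86.8% for F13a1, 81.4% for Cd163 and 79.9% for Mrc1. It was 73.9% for Lyve1, 64.7% for Retnla, with most of the rest in dendritic cells, and 50.3% for Folr2, with most of the rest in HS cells.

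Within Ma macrophages the genes were found together in the same cells. The median Ma macrophage of the young mice had UMIs of 9 of the 10 genes (8, 8.5 and 9 in Young A, B and C), and 93.4% had 3 or more. After each cell was thinned to 2000 UMIs, 88.4% still had 3 or more. Among young dendritic cells the share with 3 or more was 6.83% (2.93% thinned), and no Mb macrophage, NK cell or T and B cell reached 3. Outside the immune types, 19 of 5874 young cells (0.323%) had 3 or more, up to 7 genes in 1 fibroblast, and a doublet caller marked 0 of these 19.

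**Figure D2:**
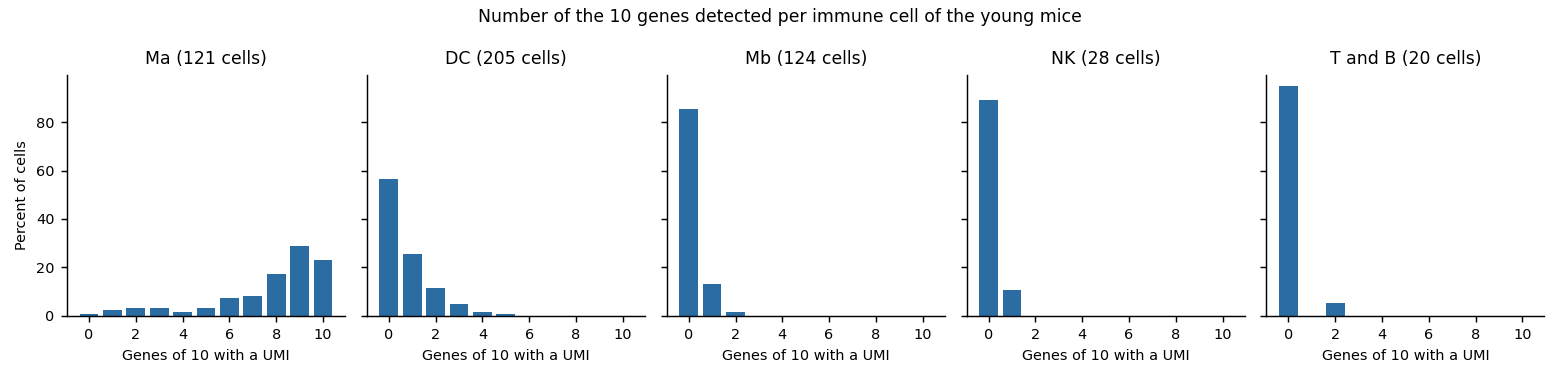
Number of the 10 genes with at least 1 UMI per immune cell of the young mice, as a percent of the cells of each type. Ma macrophages peak towards 10 with a median of 9, while 106 of 124 Mb macrophages and 116 of 205 dendritic cells had 0.

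Detection differed between genes. By mouse, Mrc1 was found in 77.5%, 90% and 93.4% of Ma macrophages, Folr2 in 82.5%, 80% and 93.4% and Cd209f in 80%, 80% and 85.2%. Cd163 was found in 60%, 50% and 49.2%, the lowest share of the 10 over all 121 cells (52.9%, Wilson 95% interval 44.0 to 61.6%, against 0% of 124 Mb macrophages, which allows a share of up to 2.42%). The median depth was 4350 UMIs in Ma and 5112 in Mb macrophages. Retnla was found in 75%, 70% and 96.7% of Ma macrophages, so Young C stood above the other mice, and Ccl24 in 65%, 70% and 88.5%. Over the 45 pairs of genes, after thinning, Spearman correlations across the 121 cells ran from -0.040 (Cd163 with Retnla) to 0.717 with a median of 0.369, and 41 pairs were found together in more cells than the product of their shares. The cells share libraries and depth, and the correlations are descriptions.

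Retnla also divided the Ma macrophages into a large and a small part, a split chosen after its values were seen. In all, 99 of the 121 cells had 10 or more Retnla UMIs (28 of 40, 14 of 20 and 57 of 61 by mouse) and 22 had under 10. The cells with 10 or more carried a median of 8 of the other 9 genes in each mouse, and those under 10 a median of 2.5, 4.5 and 3.5. Fcna was at 645 CPM in the former and 89.9 CPM in the latter, Folr2 at 1475 and 260 CPM, Ccl24 at 965 and 170 CPM, Lyve1 at 553 and 150 CPM, Cd209f at 1902 and 510 CPM and Cd209g at 1138 and 330 CPM, each pooled over the young mice. The pooled difference was smaller for Mrc1 (608 and 420 CPM), Cd163 (270 and 190 CPM) and F13a1 (878 and 400 CPM), and it ran the other way for Mrc1 in Young A (490 and 546 CPM) and for Cd163 in Young B (275 and 376 CPM). The macrophage list was at 12651 and 11890 CPM pooled, with 15373 and 15720 CPM in Young A, which held 12 of the 22 cells, but 15934 and 8024 CPM in Young B and 10470 and 5459 CPM in Young C, so in those mice it was lower in the cells with under 10. The Mb list was at 54.1 CPM in cells with 10 or more and 230 CPM in the others, and the vascular endothelial list, which holds Fabp4, at 2338 and 7214 CPM. Other lists were higher in the cells with 10 or more, pooled. The monocyte list was at 335 and 30.0 CPM, the dendritic cell list at 99.9 and 30.0 CPM, the fibroblast list at 1746 and 719 CPM and the epithelial list at 1866 and 989 CPM. The fibroblast list ran the other way in Young A and the epithelial list in Young C. The part of these differences in the split was not tested.

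Dendritic cells were the second site of Retnla. They held 1897, 2228 and 8199 CPM in Young A, B and C (706, 246 and 4503 UMIs), and Young C lay far above the other mice. The UMIs were concentrated in few cells, since the 8, 3 and 11 cells with the most Retnla in Young A, B and C held 99.4%, 98.8% and 65.2% of them. In all, 46 of the 205 young dendritic cells had 10 or more Retnla UMIs (7 of 75, 3 of 24 and 36 of 106), 22 had 1 to 9 and 137 had 0. Cells with 10 or more were at 21616, 15934 and 25527 CPM in Young A, B and C, a level that the split itself sets high. Ma macrophages with 10 or more were at 19008, 31379 and 27845 CPM in the same mice. In Mb macrophages no cell reached 10, and in fibroblasts 7 of 1799 did.

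**Figure D3:**
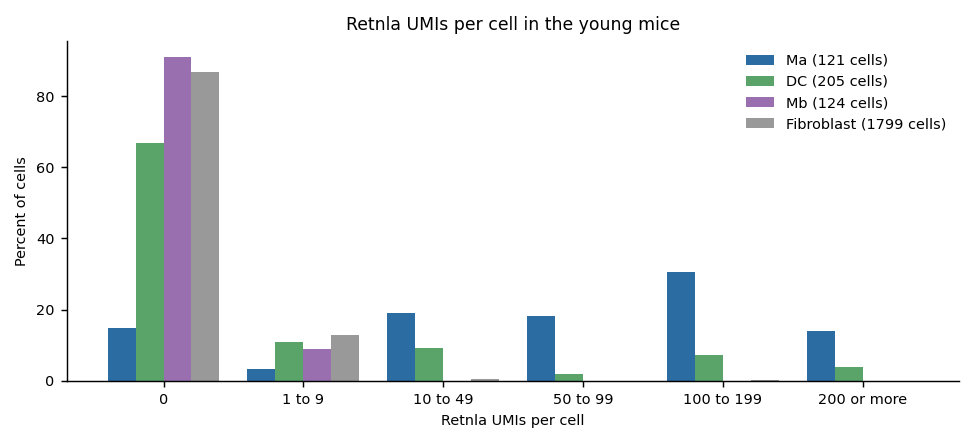
Retnla UMIs per cell of the young mice, as the percent of cells in each class for Ma macrophages, dendritic cells, Mb macrophages and fibroblasts. Ma macrophages peak in the class that starts at 100 UMIs (30.6% of cells), 66.8% of dendritic cells have 0 while 7.32% lie in that class and 3.90% have 200 or more, and Mb macrophages stay under 10.

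The 46 dendritic cells with 10 or more Retnla UMIs did not share the rest of the Ma pattern. Cd209f, Cd209g, Lyve1 and Fcna were at 0 in them, Folr2 had 4 UMIs and Cd163 3, in 223122 UMIs. Mrc1 had 24 UMIs (108 CPM, against 16.1 CPM in the 137 dendritic cells without Retnla), F13a1 30 (134 against 5.85 CPM) and Ccl24 15 (67.2 against 1.46 CPM). Young C gave 22 of these Mrc1 UMIs and 14 of the Ccl24 UMIs, and in Young A Mrc1 was at 31.0 against 28.8 CPM, whereas F13a1 was higher in each mouse (186 against 12.8, 197 against 0 and 120 against 0 CPM). Their dendritic cell list was at 264 CPM, against 1474 CPM in the cells without Retnla, with Flt3 at 0 and 40.9 CPM, Cd209a at 13.4 and 409 CPM and Ccr7 at 31.4 and 275 CPM. Their macrophage list was at 1622 against 371 CPM, below the 10139 to 15472 CPM of Ma macrophages, and the monocyte list at 1443 against 649 CPM, of which Fn1 gave 1152 against 45.3 CPM and Ccr2 273 against 92.1 CPM, while Ly6c2 was at 0 against 73.1 CPM and Plac8 at 13.4 against 395 CPM. The dendritic cell list was lower in the cells with 10 or more in each mouse (310 against 1425, 197 against 1686 and 262 against 1464 CPM). As a summed list, the dendritic cell markers of these cells thus do not follow their deposited name, and no other name is given to them.

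Retnla was found at a low level in the non-immune cells of the young glands. Over all non-immune cells it was at 29.7, 18.8 and 54.0 CPM in Young A, B and C, in 10.9%, 7.54% and 17.7% of cells. Fibroblasts (mean 53.8 CPM) and HS-AV cells (mean 41.4 CPM) were the highest of these types and their ranges overlapped. In the aged mice it was at 3.37 CPM in Aged A, 0.0986 CPM in Aged C and 0 in Aged B and D. The order of the young mice in non-immune cells differed from that in whole glands, where Retnla was at 305, 364 and 785 CPM, but Young C was the highest in both. The highest count in a non-immune cell was 49, 13 and 158 Retnla UMIs in Young A, B and C and 1 in the aged mice, and whether these UMIs were made in the cells that held them was not tested. The other genes were each at 5.16 CPM or less in the non-immune cells of any mouse except Folr2, at 20.5, 23.2 and 22.1 CPM in the young mice.

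The question of age was asked of the summed cells of each mouse, and in such sums fewer cells of a type and less RNA per cell cannot be told apart. Ma macrophages were 18.3%, 28.2% and 29.2% of the immune cells of Young A, B and C and 2.50%, 0%, 0% and 0% of those of Aged A to D, with a young mean of 25.2 ± 5.99% (SD, n = 3). The exact two-sided permutation test over 35 divisions of the mice gave p = 0.0286, the smallest it can give. A count of 0 among the 35, 10 and 11 immune cells of Aged B, C and D allows a share of up to 8.57%, 30% and 27.3%, and such limits cover counting error only. The p-values here and below take the mouse, and not the cell, as the replicate.

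In the summed immune cells each of the 10 genes was lower in the aged mice and every young value was above every aged value. Among the 2745 genes tested in these cells with edgeR's quasi-likelihood test, 7.47% were called in either direction (Benjamini-Hochberg adjusted p under 0.05 and at least 1.5-fold) and 4.3% were lower in aged mice. All 10 genes were called lower, but they passed the filter on low counts through the young mice, where they are high. The count is therefore a description, and so are the adjusted p-values given below for the 10 genes in these cells. Leaving out Young B or Young C left 9 that passed, all called, since Cd163 dropped below the filter, and thinning every mouse to the same total left 4, all called.

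Of the membrane lectins, Mrc1 was at 97.2, 171 and 196 CPM in the immune cells of Young A, B and C and at 37.4, 0, 16.5 and 0 CPM in Aged A to D. Its mean was 11.5-fold higher in the young mice and edgeR's adjusted p was 0.0169. Cd209f was at 396, 402 and 361 CPM in the young mice and at 37.4 CPM in Aged A and 0 in the other aged mice (41.4-fold, edgeR's adjusted p = 0.00241). Cd209g was at 189, 280 and 258 CPM in the young mice and 0 in all aged mice, at least 43.6-fold (edgeR's adjusted p = 0.00109). The young values of the Cd209 genes kept close together, and those of Mrc1 were lower in Young A than in the other young mice.

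Cd163 was at 48.6, 84.1 and 74.8 CPM in the young immune cells and at 0 in all aged mice, at least 12.4-fold (edgeR's adjusted p = 0.00839). Lyve1 was at 91.1, 196 and 107 CPM in the young mice and had 1 UMI in all aged immune cells, in Aged A (edgeR's adjusted p = 0.00195). For both receptors no aged mouse came near a young one, but with 10 to 40 immune cells per aged mouse the aged levels rest on few UMIs.

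Retnla was at 2944, 7171 and 11511 CPM in the immune cells of Young A, B and C and at 278, 0, 0 and 0 CPM in Aged A to D, 104-fold between the means (edgeR's adjusted p = 0.00828). DESeq2 gave an adjusted p of 0.0580 for Retnla, and with it Retnla was not called. The young values of Retnla were wide apart, with Young C the highest. Ccl24 was at 120, 165 and 290 CPM in the young mice and 0 in the aged, at least 34.4-fold (edgeR's adjusted p = 0.00366). Fcna was at 95.4, 240 and 125 CPM against 24.9, 0, 0 and 0 CPM (24.6-fold, edgeR's adjusted p = 0.0117) and F13a1 at 114, 364 and 241 CPM against 37.4, 0, 0 and 0 CPM (25.6-fold, edgeR's adjusted p = 0.0126). Folr2 was at 237, 377 and 334 CPM in the young mice and had 2 UMIs in all aged immune cells (edgeR's adjusted p = 0.000287). In each of these genes Aged A, the mouse with the 1 aged Ma macrophage, was the only aged mouse with UMIs where any were found.

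**Figure D4:**
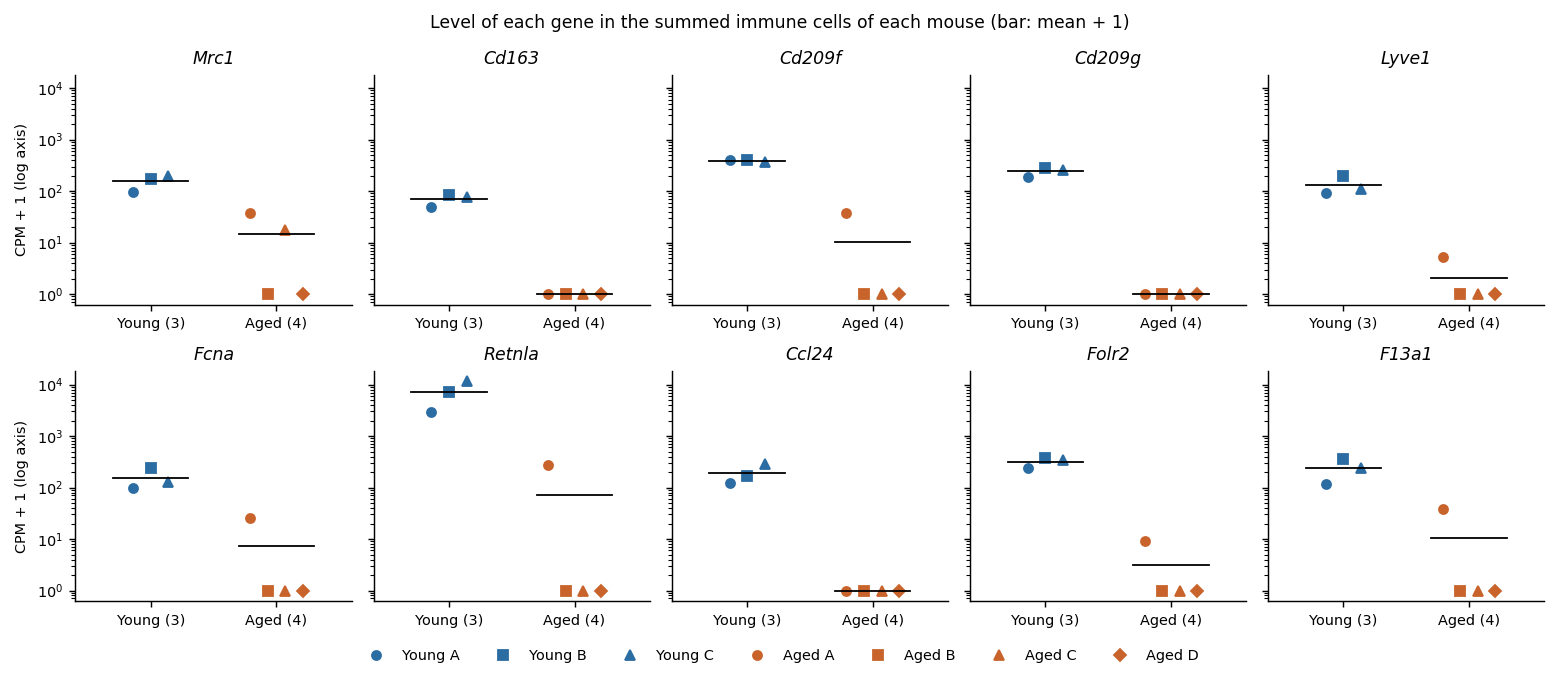
Level of each of the 10 genes (CPM + 1, log axis) in the summed immune cells of each mouse, with the mean of each group as a bar. All young mice lie above all aged mice in every panel, and the aged mouse above 1 is Aged A except for Mrc1, where Aged C is also above 1 at 16.5 CPM.

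The 1 Ma macrophage of Aged A, with 3647 UMIs, carried 7 of the 10 genes. It had 66 Retnla UMIs, 9 of Cd209f, 7 of Mrc1, 6 of Fcna, 5 of F13a1, 2 of Folr2 and 1 of Lyve1, and 0 of Cd163, Cd209g and Ccl24. It thus gave 66 of the 67 Retnla UMIs, all Cd209f, Fcna, Folr2 and Lyve1 UMIs and 7 of the 10 Mrc1 UMIs of all aged immune cells, and the other 3 Mrc1 UMIs were in Mb macrophages. A comparison of Ma macrophages by age was not possible with 1 aged cell.

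In the fits of single sets of cells that follow, Retnla too passed the filter on low counts through the young mice, where it is high, so its calls there are descriptions. In the immune cells other than Ma macrophages, 1 of the 10 genes passed the filter, Retnla, against a background of 3.69% of 2521 genes called in either direction and 1.67% lower. It was at 748, 1066 and 5917 CPM in the young mice and had 1 UMI in the aged mice, in Aged A (edgeR's adjusted p = 0.00187). The other 9 genes had 0 to 40 UMIs in the young and 0 to 4 in the aged mice and were not tested. In Mb macrophages none of the 10 passed the filter (background 1.16% of 859 genes called and 0.233% lower), with Mrc1 at 3 UMIs in each age group.

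In dendritic cells Retnla was again the 1 gene that passed, against a background of 3.75% of 1360 genes called and 1.32% lower. It was at 1897, 2228 and 8199 CPM in the young mice and at 0 in Aged A and B, the aged mice with at least 3 dendritic cells, at least 150-fold, with an adjusted p of 0.0275 from edgeR. Without Young B the adjusted p from edgeR was 0.0840 and Retnla was not called. The 21 aged dendritic cells of all 4 mice held 0 Retnla UMIs, which allows a share of cells with a UMI of up to 14.3%, close to the 16% and below the 25% and 47.2% of the young mice. F13a1 was at 26.9, 72.5 and 38.2 CPM in young dendritic cells and at 38.6 CPM in Aged A and 0 in Aged B, so its ranges overlapped, and it was not tested.

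Retnla was also the 1 gene tested in fibroblasts and in vascular endothelial cells. In fibroblasts it was at 47.9, 26.5 and 87.0 CPM in the young mice and had 1 UMI in the aged mice (edgeR's adjusted p = 0.00506, background 3.17% of 5513 genes called and 1.11% lower), and without Aged A edgeR's adjusted p was 0.0927 and it was not called. Without Young A, without Young C or with equal totals it did not pass the filter. In vascular endothelial cells it was at 29.6, 17.4 and 37.1 CPM in the young mice and at 4.24, 0, 0 and 0 CPM in the aged (26.5-fold, edgeR's adjusted p = 0.000278, background 26.7% of 7864 genes called and 12% lower). 

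Folr2 in HS cells is the exception among the non-immune levels, and the fit by age in HS cells was added after its level was seen. Folr2 was at 71.8, 61.5 and 48.2 CPM in the HS cells of Young A, B and C (197, 116 and 295 UMIs) and at 28.4, 23.4, 28.5 and 30.8 CPM in those of Aged A to D (35, 48, 21 and 26 UMIs). The lowest young mouse was above the highest aged mouse and the means differed 2.18-fold. The log2 fold change was -1.02 ± 0.18 (SE) with edgeR's adjusted p = 0.0122, against a background of 6.26% of 8457 genes called and 2.33% lower in aged mice. The share of HS cells with a Folr2 UMI was 32.9%, 30.9% and 26.9% in the young mice and 17.9%, 18.2%, 18.3% and 21.7% in the aged, although the aged cells were deeper, with medians of 7770 to 9617 UMIs against 6588 to 7106.

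Retnla passed the filter in HS cells too, at 22.6, 16.4 and 36.0 CPM in the young mice and 5.69, 0, 0 and 0 CPM in the aged (17.6-fold, edgeR's adjusted p = 0.011), and DESeq2 gave it an adjusted p of 0.0952. The UMIs of Folr2 were spread over HS cells, 738 in 565 of 2138 cells and at most 6 per cell. In the AV cells of the same mice Folr2 was at 6.35, 1.80 and 4.13 CPM in the young and 0.136 to 0.322 CPM in the aged, and 0.110% to 3.47% of AV cells had a UMI. The macrophage list in young HS cells was at 18.0 to 28.4 CPM, far below the 13143 CPM mean of Ma macrophages, and Cd209f was at 1.82 CPM in young HS cells. Folr2 was also found in HS cells of Aged B, C and D, where no Ma macrophage was captured among 35, 10 and 11 immune cells. Whether the Folr2 UMIs were made in the HS cells that held them was not tested.

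**Figure D5:**
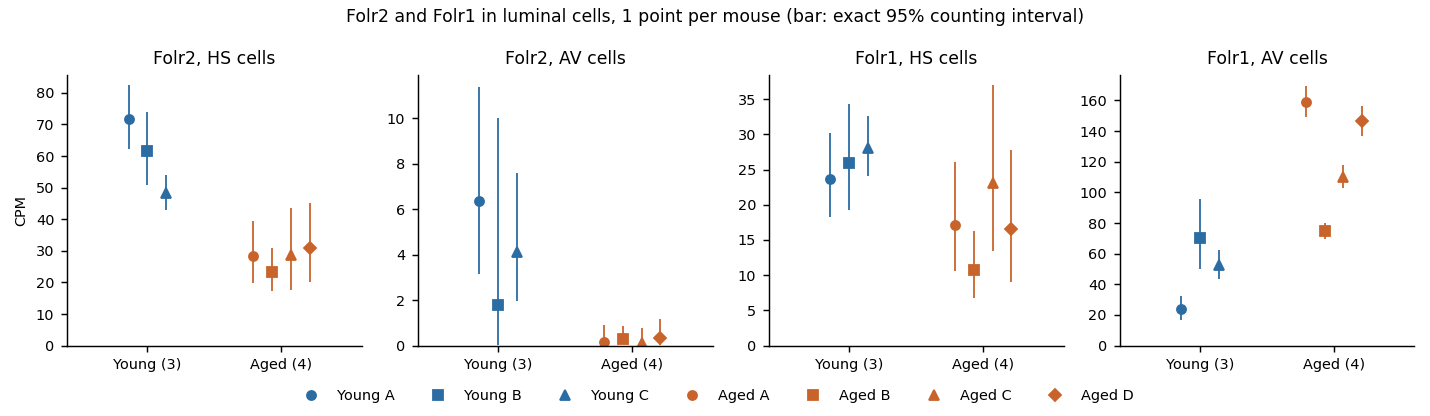
Folr2 and its neighbour Folr1 in HS and AV luminal cells, in CPM by mouse with the exact 95% counting interval as a bar, on axes that start at 0 and differ between panels. In HS cells all 3 young mice are above the aged mice for Folr2 (48.2 to 71.8 against 23.4 to 30.8 CPM), while in AV cells Folr2 is near 0 and Folr1 is at 74.7 to 159 CPM in the aged mice.

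Folr1, the folate receptor alpha of epithelia, differed from Folr2 in AV cells but not in its direction in HS cells. It was at 23.7, 70.1 and 52.5 CPM in the AV cells of the young mice and at 159, 74.7, 110 and 146 CPM in those of the aged mice, so every aged value was above every young value. In HS cells it was at 23.7, 26.0 and 28.1 CPM in the young and 17.1, 10.7, 23.1 and 16.6 CPM in the aged mice. There every young value was above every aged value, as for Folr2, though the closest values were 23.7 and 23.1 CPM. In Ma macrophages Folr1 had 2 UMIs in all young mice. No test by age was made in AV cells.

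In whole glands, as the sum of all cells of a mouse, all 10 genes were again lower in the aged mice, against a background of 32.7% of 12983 genes called and 16.8% lower. The genes passed the filter through the young mice here too, so their calls and adjusted p-values are descriptions. Retnla was at 305, 364 and 785 CPM in the young and at 9.79, 0, 0.0980 and 0 CPM in the aged mice, and Cd209g and Ccl24 had 0 UMIs in the aged mice, at least 269-fold and 219-fold lower. Folr2 was at 40.9, 40.3 and 42.0 CPM in the young mice, close together, against 3.68, 3.24, 2.16 and 2.61 CPM in the aged (14.1-fold, edgeR's adjusted p = 7.24e-05). The shares of the cell types differed between these mice, and AV cells were 794 of 6372 cells in the young and 4026 of 7312 in the aged mice.

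Genes of the same families were compared from 8 lists with 129 genes, 128 of them in the matrix. Ma macrophages held the highest level of 9 of the 23 other C-type lectins with a count, against 6.46% of all 18784 genes with a count. The lists were chosen with earlier results of these data known, so this count is a description. Clec10a and Mgl2, the galactose-type lectins, were at 701 ± 255 and 561 ± 224 CPM in Ma macrophages (SD, n = 3) and dendritic cells were next at 116 and 83.4 CPM. Of the other Cd209 genes, Cd209b (176 ± 60.5 CPM) and Cd209d (333 ± 134 CPM) were also highest in Ma macrophages, whereas Cd209a was highest in dendritic cells at 431 ± 195 CPM and 91.1 ± 59.3 CPM in Ma macrophages (SD, n = 3). The Cd209 genes were therefore not all of 1 type.

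The named partners of these receptors mostly had their highest level in other cells. The hyaluronan synthase gene Has1 and Tnfaip6, whose product binds hyaluronan, were highest in fibroblasts at 1654 ± 407 and 3165 ± 377 CPM (SD, n = 3). Of the 12 hyaluronan genes, 0 were highest in Ma macrophages, which is near the 6.46% of all genes with a count. Haptoglobin (Hp), the ligand of CD163, was highest in HS cells at 241 ± 129 CPM and at 9.63 CPM in Ma macrophages, while haem oxygenase (Hmox1), which breaks down the haem that CD163 brings in, was highest in Ma macrophages at 992 ± 486 CPM (SD, n = 3). The fibrinogen genes Fgb and Fgg, whose product factor XIII cross-links once it is fibrin, were highest in HS cells at 394 ± 77.5 and 385 ± 148 CPM (SD, n = 3), and Fga was at 0. Masp1 was at 0 and Masp2 at a mean of 1.79 CPM or less, so the proteases that act with ficolins were close to absent from these cells. Ccr3, the receptor for CCL24, had 0 UMIs in Ma macrophages and a highest mean of 7.18 CPM, in T and B cells, and Arg1, another target of interleukin-4 in macrophages, was at 0 in Ma macrophages.

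Of the type 2 cytokine pathway, the receptor gene Il4ra was at 140 ± 44.7 CPM in Ma macrophages and 168 ± 28.1 CPM in vascular endothelial cells, and Stat6 at 32.9 ± 9.51 CPM in Ma macrophages and 42.0 CPM in NK cells (SD, n = 3), without a gap between types. Of the macrophage regulators, Csf1r (576 ± 81.9 CPM) and Maf (343 ± 70.9 CPM) were highest in Ma macrophages, and Spi1, which encodes PU.1, was highest in Mb macrophages at 437 ± 28.2 CPM and 222 ± 27.6 CPM in Ma macrophages (SD, n = 3). The growth factors of CSF1R came from other types, Csf1 from fibroblasts (183 ± 57.8 CPM) and Il34 from pericytes (51.4 ± 7.91 CPM).

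Over the 15 sums of a young mouse and an immune type, the genes whose log2(CPM + 1) followed each of the 10 most closely, of 2300 with a mean of at least 50 CPM in Ma macrophages, were often members themselves. Cd209g was most like Lyve1 (Pearson's r = 0.995) and Fcna (0.994), and Lyve1 and Fcna were most like each other (r = 1.00, as both were at 0 in every other immune type). Mrc1 followed Rab3il1 (0.973) and F13a1 (0.969), F13a1 followed the lectin gene Clec10a (0.973), and Cd163 and Ccl24 followed Slc28a2 (0.986 and 0.987). Retnla was least like the rest. It followed Fcrls (0.95) and Raph1 (0.941), and its r with Cd209g was 0.680. The sums share 3 mice, and these values only describe how sharply each gene was limited to Ma macrophages.

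Of the related lists by age, 14 of 52 tested genes were called in the immune cells, with 13 lower and 1 higher in the aged mice, against 7.47% of all 2745 genes called and 4.3% lower. Genes at or near 0 in the aged mice, among them Cd209a, Clec4b1 and Mgl2, passed the filter on low counts through the young mice. Their calls, and the count of genes called lower, are therefore descriptions. These sums include the Ma macrophages, 121 cells of the young and 1 of the aged mice. The count was 9 to 15 with a mouse left out, with 9 without Aged B and 9 without Aged D, and 3 of 19 tested with equal totals. The C-type lectins made up 9 of them, 8 lower and 1 higher. Cd209a and Clec4b1 were at 0 in the aged mice, from 181 ± 62.2 and 106 ± 5.21 CPM (SD, n = 3), at least 32.5-fold and 19.0-fold (edgeR's adjusted p = 0.00234 and 0.00195). Clec10a was 8.44-fold lower (edgeR's adjusted p = 0.0217), and Mgl2 fell from 177 CPM to 3 UMIs in all (edgeR's adjusted p = 0.00106). Clec4d, an activating lectin of myeloid cells, rose 6.02-fold (edgeR's adjusted p = 0.0402). The call of Clec4d was lost without any one mouse other than Aged B (edgeR's adjusted p = 0.125, 0.104 and 0.0508 without Young A, B and C, and 0.0716, 0.0813 and 0.0864 without Aged A, C and D), and that of Clec10a without Young B or Aged D (edgeR's adjusted p = 0.0623 and 0.0507). Of the macrophage genes Pf4, a platelet-type chemokine that stood at 2089 CPM in young Ma macrophages, was 40.0-fold lower (edgeR's adjusted p = 0.00195). Cd209a and Clec4b1 were also 0 in aged dendritic cells, at least 15.8-fold and 7.23-fold lower (edgeR's adjusted p = 0.0344 and 0.0318). There too they passed the filter through the young mice, so these calls are descriptions. Both dendritic cell calls were lost without Young B or without Aged A (edgeR's adjusted p = 0.116 for each without Young B, and 0.130 for Cd209a and 0.139 for Clec4b1 without Aged A).

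In the single cell types the related genes called were 2 of 24 tested in Mb macrophages (1.16% of all genes tested there), 6 of 25 in dendritic cells (3.75% of all), 6 of 46 in fibroblasts (3.17% of all) and 22 of 45 in vascular endothelial cells, where 26.7% of all genes were called. The haem oxygenase gene Hmox1 was higher in aged mice in Mb macrophages (13.3-fold, edgeR's adjusted p = 0.0382), fibroblasts (6.78-fold, edgeR's adjusted p = 0.00162) and vascular endothelial cells (190 against 2718 CPM, edgeR's adjusted p = 2.3e-05). Clec4d rose 8.38-fold in Mb macrophages (edgeR's adjusted p = 0.0382). In Mb macrophages the call of Hmox1 was lost without Young B, Aged A, Aged C or Aged D (edgeR's adjusted p = 0.155, 0.0540, 0.0626 and 0.0610), and that of Clec4d held only without Aged B. Without Aged A Clec4d did not pass the filter, and it was not called without Young A, Young B, Young C, Aged C or Aged D (edgeR's adjusted p = 0.171, 0.155, 0.183, 0.0913 and 0.0610). In dendritic cells the ferritin genes Fth1 (2.60-fold) and Ftl1 (1.81-fold) and the scavenger receptor ligand gene Cxcl16 (3.55-fold) were higher and C1qb was at 0 in aged mice (edgeR's adjusted p for Fth1, Ftl1, Cxcl16 and C1qb was 0.000919, 0.0455, 0.0135 and 0.0344). C1qb passed the filter through the young mice, so its call is a description. Leaving out an aged mouse leaves 1 aged mouse in the dendritic cell fit, whose spread is then assumed to be that of the young mice. The call of Fth1 held in each such fit and without each young mouse, whereas without Young B edgeR's adjusted p was 0.153 for Ftl1, 0.0840 for Cxcl16 and 0.107 for C1qb, and without Aged A it was 0.287, 0.139 and 0.170. Ftl1 was also lost without Young A or Aged B, and C1qb without Aged B (edgeR's adjusted p = 0.0917, 0.155 and 0.0583). In fibroblasts Cd36, a scavenger receptor, fell from 113 to 3.58 CPM (edgeR's adjusted p = 0.0034), the factor genes Klf2 and Klf4 and fibronectin (Fn1) were lower and the tissue factor gene F3 was higher. Klf4 was not called without Young B, Fn1 without Young C and F3 without Aged A (edgeR's adjusted p = 0.0521, 0.0534 and 0.0568). In vascular endothelial cells Cd36 fell from 3116 to 737 CPM (edgeR's adjusted p = 6e-06), Il13ra1 rose from 21.1 to 107 CPM and Csf1 from 27.7 to 81.4 CPM (edgeR's adjusted p = 4e-06 and 1.8e-05).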

How the data were processed

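Raw UMI counts per gene and cell were used as deposited by the authors, who mapped the reads of 7 droplet libraries to mm10 with Cell Ranger 2.0 (per the labels) and filtered the cells on their numbers of UMIs and detected genes and on mitochondrial content. Cell type names and the fraction of mitochondrial UMIs per cell were deposited by the authors in a second table, whose column of mouse names was used to place cells. The 10 genes and the 8 lists of related genes were chosen with earlier results of these data known. All 10 genes are named in every comparison, with called genes of the related lists (at most 5 per list by size), the ligands and partners of the 10, and the 2 genes most like each. The listed lectin gene Clec7a was not analysed here.

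For each mouse and type with at least 3 cells, counts were added up. The summed counts, not scaled, were fitted for age with edgeR 4.0.16 (filterByExpr, TMM, quasi-likelihood test) in R 4.3.3 over all genes. Levels are given as CPM of the same sums. A gene was called where its adjusted p (Benjamini-Hochberg) was under 0.05 and the change at least 1.5-fold. The fits were tested on simulated data. Cell types were compared without a test. The fit in HS cells, the removal of cells with shared barcodes and the alternatives for related genes in all immune cells were added after the data were seen, and so were the splits by 10 Retnla UMIs. Detection was also computed with cells thinned to 2000 UMIs. Counting intervals and the floor of 3 counts for a 0 are at 95% and cover counting error only. Scrublet in scanpy 1.11.5 called 83 cells doublets (0.607%, 0 of them Ma macrophages or dendritic cells), and they were kept. The label letters name different animals. Alternatives comprised DESeq2 1.42.0, RLE factors, no filter, at least 10 cells per mouse, the letters as a block, removal of doublets or of shared barcodes, equal totals and each mouse left out. Sequences come from RefSeq tables and GENCODE vM21 and were matched by symbol. Promoter entries were used for 8 of the 10 genes.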

Additional observations from a re-analysis of the deposited data

Results flagged for a closer look

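Among the 29 groups of 4 aged mice tested for a single mouse far from the rest (Dixon's test), 16 held one. Chance flags about 1 in 20 groups of spread values, but in most of these the other 3 mice were at exactly 0, where any single value is flagged and that rate does not apply. Nearly all are Aged A, the aged mouse with a Ma macrophage, where the other aged mice were at or near 0. In all immune cells Aged A held 37.4 CPM of Cd209f, 4.15 of Lyve1, 24.9 of Fcna, 278 of Retnla, 8.30 of Folr2 and 37.4 of F13a1. In whole glands it held 1.26 CPM of Cd209f, 9.79 of Retnla and 0.872 of F13a1. Ma macrophages were 2.5% of its immune cells. Retnla also stood apart in Aged A outside Ma macrophages, at 4.22 CPM in the other immune cells, 4.24 in vascular endothelial cells, 1.72 in fibroblasts, 5.69 in HS cells and 3.37 in all non-immune cells. F13a1 in non-immune cells stood apart in Aged B, at 0.0594 CPM from a single UMI.

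No comparison by age was made within Ma macrophages or within AV cells, although both entered the sums over whole glands and Ma macrophages those over immune cells. The 1 Ma macrophage of Aged A held 66 Retnla UMIs. The AV cells of Aged B held 18 Cd163 UMIs in 16 of 1446 cells (1.11%), at most 3 per cell and 1.79 CPM in all, against 2.31, 0 and 0.826 CPM in the AV cells of Young A, B and C.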

How the results depend on the processing

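Of 216 alternatives to the summary results, 180 stayed within 1.5 times or on the same side of the threshold, 29 moved and 7 were weaker. Of 1088 for single genes, 990 held their call, 98 were weaker and 0 reversed. The 10 genes called in all immune cells became 4 with equal totals, where 4 passed the filter, and 9 to 10 with a mouse left out. In fibroblasts their 1 call became 0 with equal totals and 0 to 1 with a mouse left out, and in dendritic cells 0 to 1. In HS cells their 2 calls became 1 with DESeq2 and 1 with equal totals. Related genes called in all immune cells (14, alternatives added after the data were seen) became 34 without the filter, 3 with equal totals and 9 to 15 with a mouse left out. Those called in Mb macrophages (2) became 4 with DESeq2, 4 without the filter, 1 with equal totals and 0 to 2 with a mouse left out. In dendritic cells (6) they became 13 without the filter and 1 to 7 with a mouse left out, in vascular endothelial cells (22) 34 without the filter, and in fibroblasts (6) 15 without the filter. Over all genes, calls without the filter were 71 against 10 in Mb macrophages, 141 against 51 in dendritic cells and 582 against 175 in fibroblasts, and DESeq2 called 45 in Mb macrophages. The difference in the Ma share was 22.6 to 28.1 percentage points with a mouse left out, with exact permutation p of 0.0667 or 0.1, the smallest such designs allow. The causes were not tested. No Mb fit was possible with at least 10 cells per mouse, since no aged mouse had them.

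The letters A to C name different mice, and the correlations of same-letter mice were not all above 0.1 (0.118, -0.00072 and -0.051 in all immune cells). With the letter as a replicate block, related calls were 8 in all immune cells, 10 in dendritic cells and 3 in fibroblasts, the 10 genes gave 9 calls in all immune cells, where edgeR's adjusted p of Mrc1 was 0.0554, and calls over all genes in immune cells were 146 against 205. Removing cells with shared barcodes, chosen after the data were seen, left every count of the 10 genes as it was.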
